A study of Homo sapiens with 6 samples.

Results

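TRIM genes encode proteins built on a tripartite motif, a RING finger that recruits a ubiquitin-loaded conjugating enzyme, 1 or more B-boxes and a coiled coil, followed by a carboxy-terminal domain that binds the target. Most are ubiquitin ligases, and several are induced by interferon and act in the sensing or restriction of viruses, while others repress chromatin or act on the cytoskeleton and centrosome. The members described here are the rows of the deposited table whose symbol is TRIM followed by a number, 52 of 15024 rows, with 51 distinct symbols. The table lists TRIM74 under 2 identifiers, and GENCODE 29 gives the second (ENSG00000174353) as STAG3L3, a transcribed pseudogene. That row is counted among the 52 by the rule and is named where its values are given.

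RNA was sequenced from MDA-MB-231, an established triple-negative breast cancer line. All 6 libraries came from cells with a non-targeting guide (sgNT), grown with 10 µM forskolin, an activator of adenylyl cyclase and so of protein kinase A, for 14 days and then sorted as CD44-positive. Of these, 3 libraries (CD104high, biological replicates 1 to 3) held cells high in CD104, integrin beta 4, called a hybrid epithelial-mesenchymal state in the design text, and 3 (CD104low, replicates 1 to 3; CD44+CD104-/low in the labels) held cells negative or low for it, called mesenchymal. The labels do not say whether replicates were separate cultures or sorts, and the design text also names MLL3-mutant cells, which were not analysed here, as were no untreated cells.

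Recovered gene reads lay between 52088604 and 56958065 per library. ITGB4, the gene of the gated protein, had normalised read counts of 15970 to 19493 in CD104high and 2317 to 3802 in CD104low libraries, without overlap. Of the line's mesenchymal markers VIM, CD44, AXL, CAV1 and MSN, the lowest mean was that of VIM, 22352 ± 1428 in CD104high and 21201 ± 343 in CD104low libraries, and ESR1 and PGR were not analysed here. Of 11 immune markers, 3 stood in the table, and their summed value was 611 to 657 in CD104high against 302 to 336 in CD104low libraries, most of it CD14, which was 2.21-fold higher. Among the others, PTPRC, CD3D, CD3E, MS4A1, LYZ, ITGAM and TYROBP were not analysed here. Of 5 endothelial markers 3 stood in the table, with sums of 71 to 136 against 92.7 to 132. The part of RNA from such cells in the TRIM values was not tested.

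The comparison asked which TRIM genes differed between CD104high and CD104low cells after the same treatment. Of 45 members with enough reads to test, TRIM22, TRIM2 and TRIM47 rose in CD104high cells, TRIM14 fell, and 41 did not pass limma at an adjusted p under 0.05. With replicates as a block, limma called 6 members higher, adding TRIM29, TRIM38 and TRIM4, and 1 lower. The labels do not state that same-numbered libraries are pairs, so calls with the block rest on a pairing taken from these data. The called share without the block was 8.89% of the members, beside 23.4% of all 14343 genes tested (12.1% higher and 11.3% lower), and the block called 32.8% of all genes. TRIM22 was the member with the largest fold change, 2.44-fold, and the other 3 changed by 1.27-fold or less. In these bulk samples, fewer cells of a type and less RNA per cell cannot be told apart.

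All log2 fold changes here are those of log2(value + 1), where a value is a read count divided by the size factor of its library. The median log2 fold change over the 45 members was 0.04, with 29 above and 16 below 0, and it was 0.01 over all genes tested. The median absolute log2 fold change was 0.13 for the members and 0.21 for all genes, at median standard errors of 0.10 and 0.11. The 95% interval of the log2 fold change lay inside ±0.5 for 27 members (60%), as it did for 51.9% of all genes. The median level was 1337 for the members and 1323 for all genes tested. The groups did not overlap for 9 members, 5 higher and 4 lower, beside 41.2% of all genes tested (19.9% higher and 21.3% lower).

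**Figure D1:**
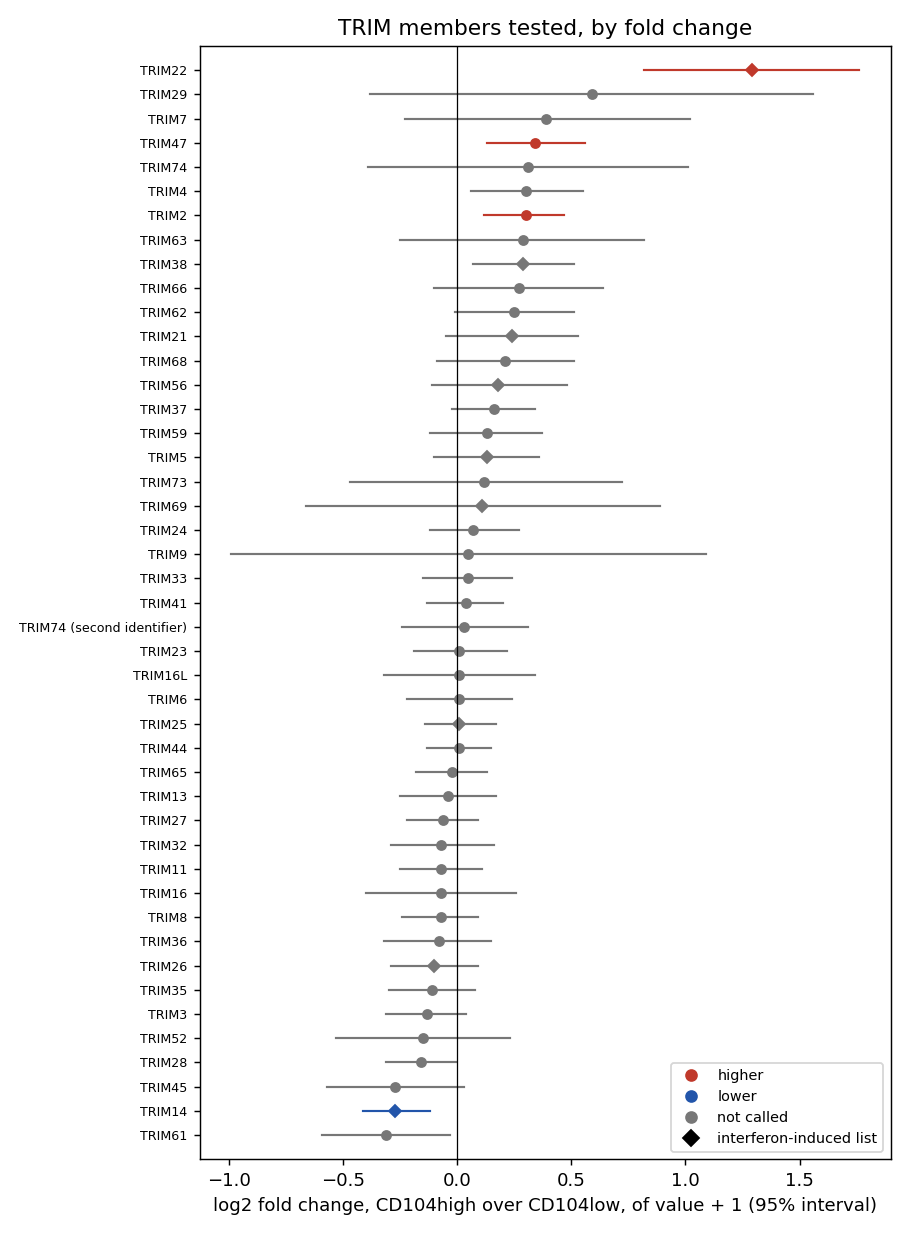
Log2 fold change of value + 1, CD104high over CD104low, for each of the 45 TRIM members tested (horizontal axis), with the 95% interval from limma as a bar. Red and blue points mark members called higher and lower, grey those not called, and diamonds the members of the interferon-induced list. TRIM22 lies at 1.29, and no other called member lies beyond 0.34 from 0.

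Levels between genes are compared per kilobase of annotated exons. TRIM28, a corepressor of KRAB zinc finger proteins that is also called KAP1, was the most abundant, with 8056 per kilobase in CD104high and 8990 in CD104low cells. TRIM8, a regulator of STAT and NF-kB signalling, followed with 1056 and 1112. TRIM44, a member without a RING finger, had 950 and 942, and TRIM25 had 944 and 934. TRIM44 and TRIM25 differed by less than the spread between libraries. TRIM22, the member with the largest rise, ranked 39 of 45, with 47.9 per kilobase in CD104high and 19 in CD104low cells. The 7 members not tested, TRIM17, TRIM39, TRIM46, TRIM50, TRIM54, TRIM55 and TRIM71, had values between 1.97 and 13.9 in all 6 libraries. TRIM39 shares 29.5% of its exonic bases with the read-through gene TRIM39-RPP21, and what such sharing did to its count was not tested.

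**Figure D2:**
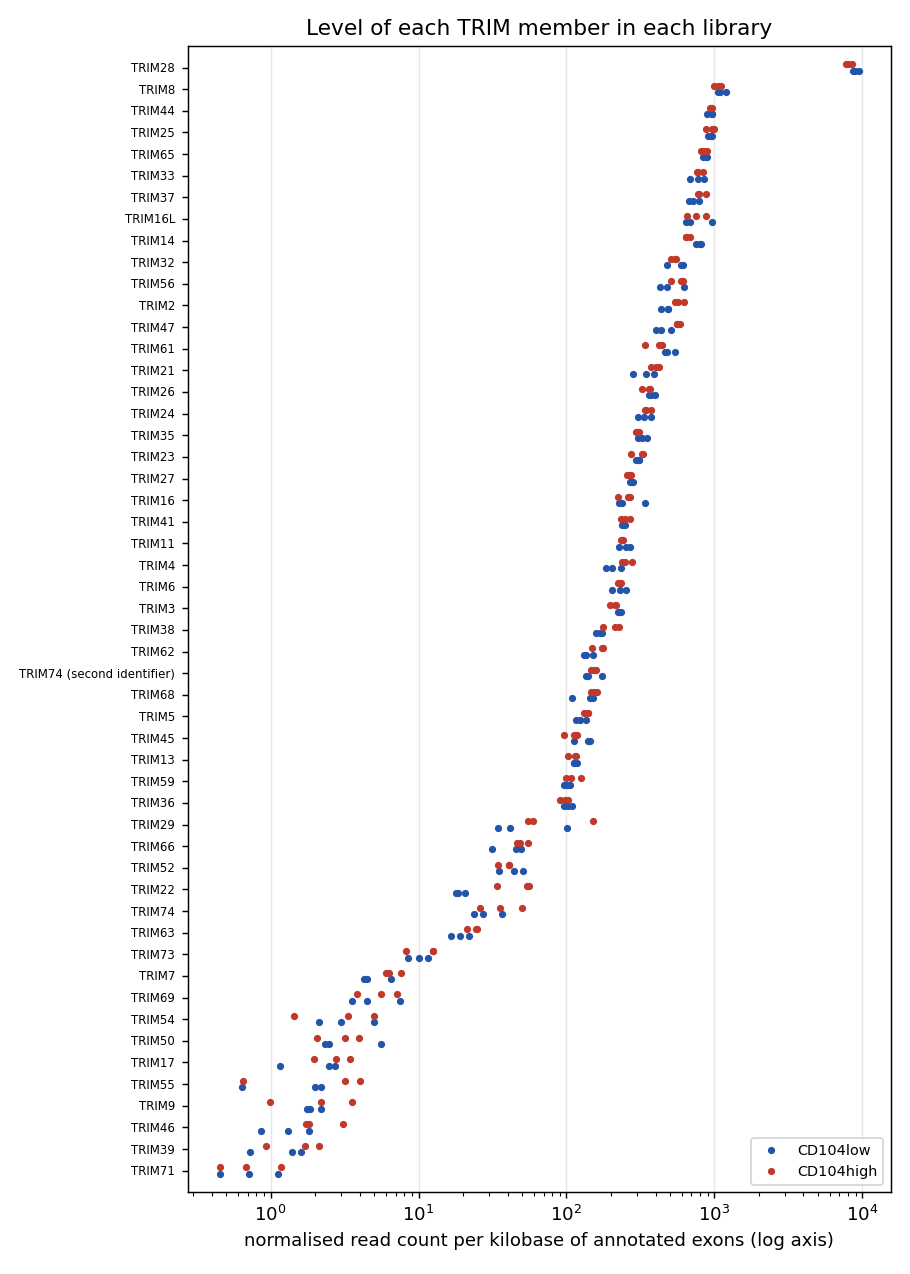
Normalised read count per kilobase of annotated exons (log axis) for all 52 TRIM rows, 1 point per library, red for CD104high and blue for CD104low. Group means run over more than 3 orders of magnitude, from 0.761 for TRIM71 to 8990 for TRIM28, and for most genes the red and blue points fall together.

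The list of interferon-induced TRIM genes held 11 symbols, of which 9 were tested. TRIM22 rose, TRIM14 fell (22.2% called, near the 23.4% of all genes) and 7 did not pass, with a median log2 fold change of 0.13. TRIM22, an antiviral PRY-SPRY ligase that acts in the nucleus, had normalised read counts of 328, 334 and 203 in CD104high replicates 1 to 3 and of 124, 108 and 111 in CD104low replicates 1 to 3. Every CD104high library lay above every CD104low library, with replicate 3 the lowest of the CD104high group. The means were 288 ± 74 (SD, n = 3) and 115 ± 8.45, a log2 fold change of 1.29 (SE 0.21, limma adjusted p = 0.00273). Over the 16 alternatives run at the same threshold, in all of which TRIM22 was called, it ranged from 1.17 to 1.52. TRIM22 shares 10.7% of its exonic bases with OR56B1 on the same strand, a gene not analysed here.

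TRIM14 lacks a RING finger and works as an adaptor at mitochondria in the signalling of RNA sensors. Its values were 3492, 3536 and 3738 in CD104high and 4355, 4453 and 4132 in CD104low libraries. The groups did not overlap, in the direction opposite to TRIM22, at 3588 ± 131 against 4313 ± 164. It was 1.2-fold lower (log2 fold change -0.27, SE 0.07, limma adjusted p = 0.0191). The call of TRIM14 ended without CD104high replicate 1 (adjusted p = 0.0715), CD104high replicate 2 (0.071) or CD104low replicate 2 (0.0711), and when limma was run with no trend (0.053). TRIM14 shares 7.72% of its exonic bases with NANS on the other strand, and the strand setting of the counting is not given in the sources used here.

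TRIM25, which ubiquitinates the RNA sensor RIG-I and binds RNA itself, had 9429, 8336 and 9129 in CD104high and 8958, 9098 and 8568 in CD104low libraries. The groups overlapped, and the log2 fold change of 0.01 had a 95% interval of -0.14 to 0.17. TRIM21, a cytosolic receptor for antibody that sends bound virus to the proteasome, had 811, 722 and 772 against 756, 545 and 668. Each CD104high library was above the CD104low library of the same number, but the groups overlapped, and the interval ran from -0.05 to 0.53 around 0.24 (adjusted p = 0.215). TRIM5, which recognises retroviral capsids, had 670, 667 and 635 against 596, 560 and 649. These overlapped as well, with a log2 fold change of 0.13 and an interval of -0.10 to 0.36. TRIM26, whose values were 1591, 1411 and 1618 against 1728, 1592 and 1621, had -0.10 with an interval of -0.29 to 0.09.

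TRIM38, a negative regulator of innate immune signalling, had 2006, 2117 and 1665 in CD104high and 1499, 1626 and 1591 in CD104low libraries. No CD104low library reached the CD104high libraries, though replicate 3 of the latter came close. TRIM38 had a log2 fold change of 0.29 (SE 0.10) and missed the threshold in limma at an adjusted p of 0.0624. In the fit with a replicate block it passed (adjusted p = 0.0293), as it did when CD104high replicate 3 was left out (0.39, adjusted p = 0.0193). TRIM56, an RNA-binding ligase with antiviral activity, had 6917, 5694 and 6631 against 4775, 5324 and 6997. CD104low replicate 3 was the highest of the 6 libraries. The log2 fold change of 0.18 (adjusted p = 0.339) became 0.34 without that library (adjusted p = 0.0311). TRIM69, known to restrict vesicular stomatitis virus, was low, with 35.6, 51.6 and 65.9 against 69.9, 41.4 and 33, overlapping widely, and its 95% interval ran from -0.66 to 0.89.

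**Figure D3:**
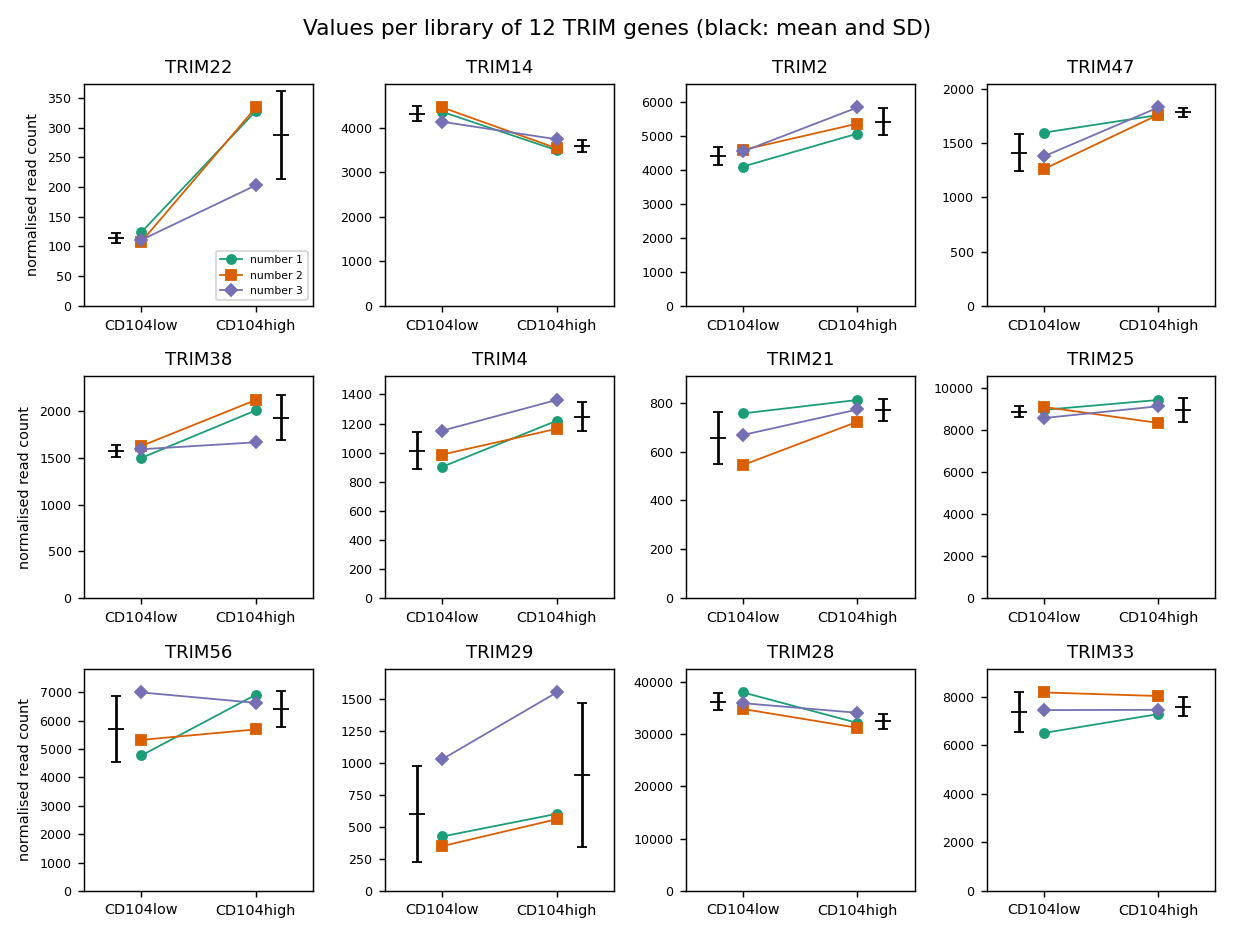
Normalised read counts of 12 TRIM genes in each library (vertical axes from 0), with lines joining libraries of the same replicate number and black marks for the group mean and SD. TRIM22 rises from 108 to 124 in CD104low to 203 to 334 in CD104high libraries, TRIM14 falls in all 3 numbered pairs, and both libraries numbered 3 stand high for TRIM29.

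Binding sites of the interferon-activated factor ISGF3 and of IRF proteins are known as interferon-stimulated response elements. The motif GAAA, then any 2 bases, then GAAA was searched on both strands (on the other it reads TTTC, any 2 bases, TTTC) in RefSeq promoter windows on GRCh38.p14 that run from 250 bases before to 50 bases after an annotated start. Windows were found for 38 of the 51 symbols, TRIM22 not among them. The motif stood in at least 1 window of 8 of these 38 genes (21.1%), against 4.38% of 27305 genes in all. Counted by window it stood in 3.57% of 35116 windows, a share not counted for the members. Genes differ in their number of windows, which was not adjusted for. The other motifs searched in the same windows lay nearer the share of all genes. The STAT site TTC, any 3 bases, GAA stood in 5 of 38 genes (13.2%, against 9.38% of all), and the cyclic AMP response element, TGACG followed by TCA, in 1, TRIM66 (2.63%, against 2.25%). A match describes letters in the window and is not evidence of binding. TRIM14, TRIM21, TRIM26, TRIM5 and TRIM69 of the interferon-induced list had a match, and TRIM2, TRIM16 and TRIM44 outside it. TRIM25, TRIM38 and TRIM56 had none in their windows.

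All 8 genes with the first motif are shown, because they carry it and, apart from TRIM2, were not called higher. Capitals mark the motif, and all read 5′ to 3′ on the strand of the gene. Where the surrounding bases lie in an exon annotated by GENCODE, the match alone is given. In TRIM26 and TRIM21 the capitals hold 2 overlapping matches.
TRIM14 (chr9:98119223-98119278, minus strand): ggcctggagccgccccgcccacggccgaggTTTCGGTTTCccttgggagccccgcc
TRIM26 (chr6:30213555-30213630, minus strand): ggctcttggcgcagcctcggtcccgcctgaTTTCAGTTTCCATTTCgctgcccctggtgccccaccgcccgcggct
TRIM2 (chr4:153151916-153151985, plus strand): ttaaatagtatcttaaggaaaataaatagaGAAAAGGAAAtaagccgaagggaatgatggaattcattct
TRIM44 (chr11:35662710-35662774, plus strand): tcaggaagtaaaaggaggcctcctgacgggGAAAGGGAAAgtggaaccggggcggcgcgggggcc
TRIM16 (chr17:15683022-15683031, minus strand): GAAATAGAAA
TRIM21 (chr11:4393670-4393685, minus strand): GAAACTGAAAGTGAAA
TRIM5 (chr11:5685092-5685101, minus strand): TTTCACTTTC
TRIM69 (chr15:44736466-44736475, plus strand): TTTCTCTTTC
The match of TRIM14 begins 26 bases and that of TRIM5 27 bases before the start, while that of TRIM26 lies 194 bases and that of TRIM2 217 bases before it. The match of TRIM21 begins at base 18 after the start.

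TRIM22 and TRIM5 lie together on chromosome 11 of GRCh38. TRIM22 spans 5689689 to 5737089 on the plus strand, inside the annotated span of TRIM5 (5663557 to 5938619, minus strand), and TRIM6 lies 76.7 kb away (5596109 to 5612958, plus strand). No exonic base of TRIM22 is shared with TRIM5 or TRIM6 in the annotation. TRIM6, a ligase that makes unanchored ubiquitin chains, had 904, 888 and 919 in CD104high and 905, 798 and 993 in CD104low libraries. The log2 fold change of TRIM6 was 0.01 (SE 0.10), so of these 3 neighbouring TRIM genes TRIM22 passed and TRIM5 and TRIM6 did not. TRIM6 shares 29.3% of its exonic bases with the read-through gene TRIM6-TRIM34. The differences between their fold changes were not tested.

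Outside the interferon-induced list, 2 of 36 tested members were higher in limma (5.56%, beside 12.1% of all genes tested). In limma 0 were lower, beside 11.3% of all genes tested, and 0 were lower in edgeR or DESeq2. At an unadjusted p under 0.05, 2 were lower, TRIM28 and TRIM61. Over all 45 members 8 had an unadjusted p under 0.05, beside 36.9% of all genes tested. TRIM2, a ligase with NHL repeats known for its role in neurons, had 5082, 5376 and 5853 in CD104high and 4110, 4601 and 4555 in CD104low libraries. Every CD104high library lay above the CD104low ones, and TRIM2 was 1.23-fold higher (5437 ± 389 against 4422 ± 271, log2 fold change 0.30, SE 0.08, limma adjusted p = 0.0217). Its call ended without CD104high replicate 2 (adjusted p = 0.0639), CD104high replicate 3 (0.0788) or CD104low replicate 1 (0.0524), and in limma without the trend (0.0714). The other tested NHL members, TRIM3 and TRIM32, had log2 fold changes of -0.13 and -0.07 and did not pass.

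TRIM47, a PRY-SPRY ligase, had 1758, 1761 and 1828 in CD104high and 1596, 1260 and 1377 in CD104low libraries. The 3 CD104high values lay close together and above all CD104low values. It was 1.27-fold higher (1782 ± 39.5 against 1411 ± 170, log2 fold change 0.34, SE 0.10, limma adjusted p = 0.0295). The call of TRIM47 was the least firm, since it held without CD104low replicate 1 (0.44, adjusted p = 0.0099) and ended without any 1 of the other 5 libraries (adjusted p = 0.0577 to 0.103) and in limma without the trend (0.0728). TRIM47 shares 51.5% of its exonic bases with AC087289.5 on the other strand, a gene not analysed here. Its neighbour TRIM65, 1.76 kb away, had a log2 fold change of -0.02 (SE 0.07).

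TRIM4, a ligase reported to act on RIG-I, had 1219, 1164 and 1362 in CD104high and 903, 987 and 1151 in CD104low libraries. The highest CD104low library lay just under the lowest CD104high library. TRIM4 had a log2 fold change of 0.30 (SE 0.11) at a limma adjusted p of 0.0754. It passed once replicates were blocked (adjusted p = 0.0196), and when CD104low replicate 3 was left out (0.40, adjusted p = 0.0266). TRIM29, a member without a RING finger that marks basal and stratified epithelia, had 602, 560 and 1551 against 425, 350 and 1029. Both libraries numbered 3 were high, and each CD104high library was above the CD104low library of its number. Its log2 fold change of 0.59 had an SE of 0.44 without the block (adjusted p = 0.36) and passed with it (adjusted p = 0.00147), and also without both libraries numbered 3 (0.59, adjusted p = 0.00985). With the block, 6 members were higher (TRIM22, TRIM2, TRIM47, TRIM38, TRIM4 and TRIM29) and 1 lower (TRIM14), beside 17.4% and 15.4% of all genes tested.

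The members with a PHD finger and a bromodomain had 0 calls among 4 tested in limma, edgeR and DESeq2, and 1, TRIM28, at an unadjusted p under 0.05. TRIM28 had 32160, 31229 and 34110 in CD104high and 38007, 34840 and 35949 in CD104low libraries. All CD104high libraries were below all CD104low libraries, at a log2 fold change of -0.16 (SE 0.07, limma adjusted p = 0.128). TRIM24, a coregulator of nuclear receptors, had 3147, 3172 and 3463 against 2798, 3097 and 3423, a log2 fold change of 0.07 with an interval of -0.12 to 0.27. TRIM33, a ligase for SMAD4 in TGF-beta signalling, had 7283, 8026 and 7458 against 6503, 8173 and 7445, and its interval of -0.15 to 0.24 lay inside ±0.5. TRIM66 had 644, 573 and 550 against 373, 537 and 581, with CD104low replicate 1 standing low (log2 fold change 0.27, interval -0.10 to 0.64).

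Besides TRIM29, the largest fold changes without a call were those of TRIM7 and TRIM61. TRIM7, a ligase first found as a partner of glycogenin, was low, with 46.4, 55.6 and 44.3 against 47.5, 31.5 and 33 (log2 fold change 0.39, interval -0.23 to 1.02). TRIM61 had 535, 697 and 664 in CD104high and 854, 730 and 756 in CD104low libraries. Here too the CD104high libraries lay below the others, with a log2 fold change of -0.31 (SE 0.13) at a limma adjusted p of 0.104. TRIM61 shares 33.2% of its exonic bases with AC106872.5, which was not analysed here. TRIM8 had 10070, 10649 and 9514 against 10452, 11359 and 10020, and TRIM44 12251, 12363 and 12656 against 11707, 12541 and 12705. Both overlapped between groups, at log2 fold changes of -0.07 and 0.01.

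By carboxy-terminal domain, 2 of 21 tested PRY-SPRY members were higher and 1 lower, with a median log2 fold change of 0.04. These calls were 9.52% and 4.76% of that class, beside 12.1% and 11.3% of all genes tested. Of 3 tested NHL members 1 was higher, so its share of 33.3% rests on 1 gene. The 7 tested members with no named carboxy-terminal domain, counting the TRIM74 row that GENCODE gives as STAG3L3, had 0 calls in limma, edgeR and DESeq2. So had the 4 with a PHD finger and bromodomain, and the single tested members with MATH, ARF and filamin domains (TRIM37, TRIM23 and TRIM45). In all these classes, TRIM61 and TRIM28 alone had an unadjusted p under 0.05. TRIM37, which limits centrosome assembly, had 0.16 (adjusted p = 0.171), TRIM23 0.01 and TRIM45 -0.27 (adjusted p = 0.172). TRIM16 and TRIM16L are close copies, as are TRIM73 and TRIM74 with TRIM50, and their reads may have been divided between copies. None of TRIM16, TRIM16L, TRIM73 and TRIM74 passed, with log2 fold changes of -0.07, 0.01, 0.12 and 0.31. The row named TRIM74 that GENCODE gives as STAG3L3 had 0.03.

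Genes that encode tripartite-motif relatives under other symbols gave 0 calls among 6 tested in limma and in edgeR, 1 in DESeq2 (MID1) and 2 at an unadjusted p under 0.05 (PML and MID1). PML, the scaffold of nuclear bodies and an interferon-induced gene, had 4205 ± 251 in CD104high against 3662 ± 153 (log2 fold change 0.20, adjusted p = 0.0753). MID1, a microtubule-bound ligase, had 2681 ± 330 against 2164 ± 219 (0.31, adjusted p = 0.0682). With replicates blocked, both passed as higher (adjusted p = 0.0345 and 0.0323). RNF135, also called Riplet, a ligase for RIG-I, had 0.14, and CMYA5 0.60 at a level of 37.1 ± 2.4 against 25 ± 8.75, and neither passed.

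Among sensors and adaptors that TRIM proteins act on, of 20 tested RNA and DNA sensing genes, 8 were higher and 1 lower (45%, beside 23.4% of all genes). This list and the interferon receptor list were chosen with earlier results of these data known, so their shares are not independent support. With replicates blocked 9 were higher, IRF7 being added, where 17.4% of all genes were higher. In the same fit 3 were lower, TRAF3 and DDX41 being added, where 15.4% of all genes were lower. DHX58 (LGP2) was 2.67-fold higher, IFIH1 (MDA5) 2.46-fold, DDX58 (RIG-I) 1.59-fold and NLRC5, a regulator of class I antigen presentation, 1.53-fold. Without the block, the DNA sensor gene CGAS was the 1 that fell, by 0.28 on the log2 scale (limma adjusted p = 0.0269), a call that ended without any 1 of 4 libraries. Among the higher genes, the call of TAB3 also ended without any 1 of 4 libraries, and that of IRF3 without both libraries numbered 3. RIG-I rose, and TRIM25, TRIM4 and RNF135, which act on it, did not pass. Differences between these genes' fold changes were not tested. Of 10 tested genes of interferon receptors and their factors, 4 were higher (40%, beside 12.1% of all genes) and 0 lower, the latter also in edgeR, in DESeq2 and at an unadjusted p under 0.05. STAT2 was 1.99-fold, IRF1 1.6-fold and IFNGR2 1.62-fold higher. IFNAR1 was 1.27-fold higher, a call that ended without any 1 of 5 libraries.

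**Figure D4:**
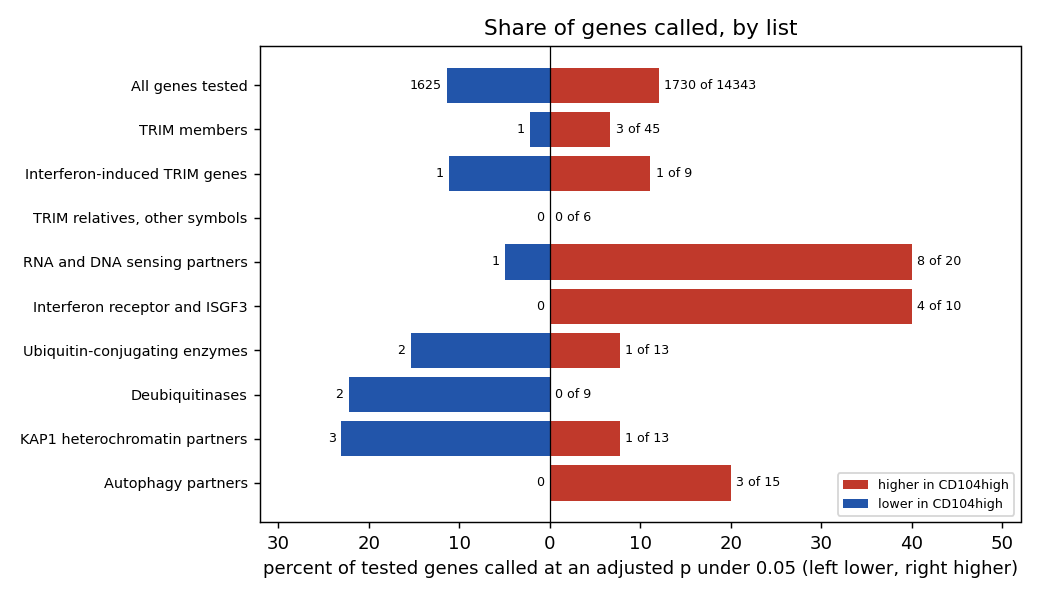
Percent of tested genes called higher (red, right) and lower (blue, left) in CD104high cells at an adjusted p under 0.05, for all genes, the TRIM members and the lists of related genes, with counts at the bars. The TRIM bars (3 and 1 of 45) are shorter than those of all genes, and the sensing list has 8 of 20 higher. The lists of related genes were chosen with earlier results of these data known.

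Among 13 conjugating enzymes that serve RING ligases, 1 was higher and 2 lower (23.1%, beside 23.4% of all genes), so the list stood at the share of all genes. With replicates blocked 4 were lower, UBE2D3 and UBE2E3 being added, where 15.4% of all genes were lower. UBE2L6, the conjugating enzyme for ISG15, was 1.87-fold higher (1679 ± 126 against 900 ± 129, limma adjusted p = 0.000949). UBE2D2, which serves many RING ligases, fell by 0.30, and UBE2N, which builds lysine-63 chains, fell by 0.26 on the log2 scale (adjusted p = 0.0185 and 0.0345). Both of these calls ended without CD104high replicate 1 or replicate 2, and that of UBE2N also without CD104low replicate 1 or 2. Of 9 deubiquitinases, 0 were higher in limma, edgeR and DESeq2 (1, USP11, at an unadjusted p under 0.05 and with replicates blocked). In limma 2 were lower (22.2%, beside 11.3% of all genes lower and 23.4% called). USP7 fell by 0.39 (adjusted p = 0.00573), and USP15, which removes ubiquitin from TRIM25, by 0.32 (adjusted p = 0.0319), the latter losing its call without CD104high replicate 1 or CD104low replicate 1 or 2.

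Of 13 chromatin partners of TRIM28, 1 was higher and 3 lower (30.8%, beside 23.4% of all genes), a share near that of all genes. By direction 7.69% were higher and 23.1% lower, beside 12.1% and 11.3% of all genes tested, and the lower share rests on 3 genes. UHRF1, CBX1 and DNMT1 fell by 0.32, 0.26 and 0.28, and MPHOSPH8, a subunit of the HUSH complex, rose 1.23-fold. The calls of DNMT1 and MPHOSPH8 ended without any 1 of 5 and 4 libraries, and those of UHRF1 and CBX1 without CD104high replicate 2. SETDB1, the histone methyltransferase that TRIM28 recruits, had 0.15 and did not pass. Of 15 autophagy partners, 3 were higher (20%, beside 12.1% of all genes higher and 23.4% called). With replicates blocked 5 were higher, MAP1LC3A and GABARAPL1 being added, where 17.4% of all genes were higher. None fell in limma, edgeR or DESeq2, or at an unadjusted p under 0.05. LGALS3, a galectin that TRIM proteins bind at damaged vesicles, was 1.65-fold higher, TFEB 1.44-fold and ULK1 1.27-fold, the last losing its call without CD104high replicate 1.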

How the data were processed

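Total RNA was measured in 6 libraries from the sorted MDA-MB-231 populations. The submitters' processing notes name STAR 2.4.0, FastQC, DESeq2 1.30.1, featureCounts 1.5.0 and the build GRCh38.p13 (hg38), without roles, and the strand setting is not given in the sources used here. As signal values, the authors deposited for each library its gene read counts after division by 1 size factor, as the steps between values show. Their deposited comparison holds log2 fold changes, a test statistic (a score) and p-values. In the authors' deposited table, 5 members have an adjusted p-value under 0.05, as do 29.6% of all genes.

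Limma 3.58.1 with its trend option (R 4.3.3) was fitted to log2(value + 1) of 14343 genes with at least 10 in at least 3 of 6 libraries, with Benjamini-Hochberg adjustment over all of them and a threshold of 0.05, two-sided. The script was tested on simulated data. Whole reads were recovered from the size of 1 read in each library (99.993% or more came within 0.1 of whole numbers; this is less certain for CD104high replicate 2, whose size was 0.9926), and edgeR 4.0.16 and DESeq2 1.42.0 were run on them as alternatives. Since separate cultures are not stated, p-values reflect only how these samples vary, which may be technical. Other alternatives were pseudocounts, no filter, omitted libraries, no trend, TMM scaling and a stricter threshold.

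Same-numbered libraries deviated together (after subtracting group means, their correlations over genes were 0.166, 0.317 and 0.477). Numbers 1 and 2 also did so across numbers (0.129 for CD104high 2 with CD104low 1, 0.0931 for CD104high 1 with CD104low 2). Number 3 with the other numbers had -0.373 to -0.222. Subtracting group means forces negative values there once the libraries numbered 3 correlate positively, so these are not separate evidence. Pairing within numbers 1 and 2 is weakly shown. The numbers were taken to pair libraries, on the data and not on the labels, and the block was run as an alternative. Its adjusted p-values thus rest on a pairing taken from the same values that it tests. Members, lists and the rule for named genes were chosen with earlier results of these data known. The rule named called members, interferon-induced and PHD-bromodomain members, TRIM29, the 3 most abundant per kilobase, the 3 largest changes without a call, members whose call depended on a setting, and up to 4 genes per related list; neighbouring genes and the members given by domain class were added after their values were seen. Spans are from GENCODE 29, matched without the identifier's version (15 of 52 had the same version).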

Additional observations from a re-analysis of the deposited data

How the results depend on the processing

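None of the 45 tested members changed direction with a call in any alternative. Of the 4 called members, TRIM22 kept its call in all 16 alternatives at the same threshold, while TRIM2, TRIM14 and TRIM47 each lost it in 4 or more, and 4 uncalled members (TRIM29, TRIM38, TRIM4 and TRIM56) passed in at least 1. The replicate block changed no other member's call than those of TRIM29, TRIM38 and TRIM4. The number of members higher was 3, and it became 6 with the replicate block, 5 with DESeq2, 1 in limma without the trend and 1 at a threshold of 0.01. The number lower was 1, and it became 0 without the trend and 0 at 0.01. Leaving out 1 library gave 1 to 4 members higher and 0 to 1 lower. Interferon-induced members higher numbered 1, but 2 with the replicate block, 3 without both libraries numbered 3, 2 with DESeq2, and 1 to 2 without 1 library. Over all genes, 1730 were higher and 1625 lower, with 826 and 610 at 0.01, 936 lower without the trend, and 1017 to 1766 higher and 799 to 1547 lower without 1 library. TMM scaling shifted the median of all genes by -0.00358 on the log2 scale. Other alternatives, including pseudocounts of 0.1 and 5 and no filter, left these counts within 1.5 times. The 7 members with values up to 13.9 are too low to compare at this depth.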

Other observations

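TRIM47 lies on chromosome 17 (75874161 to 75878575, minus strand, GRCh38), 116 kb from ITGB4, the gene of the sort marker (75721328 to 75757818), and this neighbourhood was looked at after its position was seen. Of 17 genes tested within 200 kb of TRIM47, 3 were higher and 2 lower in CD104high cells in limma, beside 12.1% and 11.3% of all genes tested. The higher genes include ITGB4, whose rise is not independent of the sort, so the count is no support for a raised neighbourhood. GALK1, whose span overlaps that of ITGB4, had a log2 fold change of 0.33 (adjusted p = 0.0461) and WBP2 0.24 (adjusted p = 0.0278). H3-3B, between ITGB4 and TRIM47, fell by 0.25 (adjusted p = 0.0224), and SRP68 fell by 0.22 (adjusted p = 0.0323). The tested genes nearest to TRIM47 on either side, TRIM65 and WBP2, had -0.02 and 0.24.

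The summed value of the 45 tested members was between 0.243% and 0.252% of all values in each of the 6 libraries, with CD104high and CD104low libraries overlapping. The same sum over the 9 tested interferon-induced members was 22868 to 25279 in CD104high and 22861 to 24371 in CD104low libraries, also overlapping, and TRIM25, TRIM56 and TRIM14 made up most of it.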
